A study of Sus scrofa with 14 samples.

Results

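HMGCS1, SQLE, CYP51 and MSMO1 are 4 enzymes of cholesterol synthesis, described here in the endometrium of gilts (young female pigs). They were taken as every probe set of a porcine array whose single gene symbol was that of 1 of these enzymes. This gave 6 probe sets out of 23935, and 5 of them were bright enough to test among the 16754 tested. HMGCS1, SQLE and CYP51 had 1 probe set each and MSMO1 had 3. The enzymes were selected on their signals in control gilts: in an earlier pass over the same arrays they were higher on day 15 than on day 13. That difference is therefore given as a description with no test, and so are comparisons that use the same control arrays. The day difference in estrogen gilts took no part in the choice and was tested.

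Cells make cholesterol from acetyl-CoA through the mevalonate pathway to squalene, which is oxygenated, closed into lanosterol and trimmed to cholesterol. HMGCS1 makes HMG-CoA at the head of the pathway, SQLE oxygenates squalene, CYP51 is the cytochrome P450 that takes a methyl group off lanosterol, and MSMO1 starts the next round of methyl removal. Transcription of these genes is driven by SREBP2, a factor held in the endoplasmic reticulum while sterol is plentiful and released when it runs low.

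Total RNA of the endometrium, the lining of the uterus, was hybridised to 1 array per gilt for 14 crossbred cyclic gilts aged 8 to 10 months. Gilts received estrogen or, as the control, corn oil when their second estrus began, and a further dose 24 hours afterwards. Tissue was frozen on day 13 or day 15 of pseudopregnancy, days the submitters place at conceptus attachment. The 4 groups were control day 13 (n = 4), control day 15 (n = 3), estrogen day 13 (n = 4) and estrogen day 15 (n = 3). All 4 groups were pseudopregnant, and the estrogen compound, its dose and the way pseudopregnancy was brought about are not given in the sources used here. The samples are labelled as biological replicates, and p-values measure the spread between these gilts. The tissue is a mixture of cells, so in every comparison fewer cells of a type and less RNA per cell cannot be told apart.

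Signals are array intensities, given as log2(signal + 16). Of the 14 arrays, 3 stood apart. Replicate 1 of control day 13 had a median correlation to the others of 0.860, replicate 3 of control day 15 had 0.873 and replicate 2 of estrogen day 15 had 0.885, against 0.927 to 0.952 for the other 11. Results are given with and without these 3 arrays. Epithelial markers were measured for 11 of 12 genes and stromal markers for 7 of 9, and all of these were above the brightness filter. The number of arrays limits the precision.

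HMGCS1, the cytosolic HMG-CoA synthase, was read by 1 probe set. Its log2 values in control gilts were 9.33, 9.57, 8.92 and 9.21 on day 13 and 10.19, 9.99 and 11.41 on day 15 (replicates in number order). In estrogen gilts they were 9.24, 10.41, 9.03 and 9.27 on day 13 and 9.80, 10.43 and 10.04 on day 15. Every control day 15 array was above every control day 13 array, whereas in estrogen gilts the days overlapped because replicate 2 of day 13 was as high as the day 15 arrays. The control separation goes with the choice of the enzymes. The share of all probe sets whose groups separate is not given, here or for the enzymes below. Group means were 9.26 ± 0.27 (SD, n = 4) and 10.53 ± 0.77 (SD, n = 3) in controls and 9.49 ± 0.63 (SD, n = 4) and 10.09 ± 0.32 (SD, n = 3) in estrogen gilts. The day difference in controls was 1.27 ± 0.36 (SE), or 2.41-fold. Control day 15 replicate 3 was the highest array of all for HMGCS1, and without it the difference was 0.83.

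SQLE, squalene epoxidase, had log2 values of 8.98, 10.00, 8.67 and 10.39 in controls on day 13 and 10.78, 10.73 and 11.78 on day 15. In estrogen gilts the values were 9.37, 10.16, 8.44 and 10.27 on day 13 and 11.03, 9.99 and 10.34 on day 15. Day 13 arrays fell into a lower and a higher pair under both treatments, with replicates 2 and 4 high and replicates 1 and 3 low. The control days did not overlap, and the estrogen days did, through replicate 2 of day 15. Means were 9.51 ± 0.81 (SD, n = 4) and 11.10 ± 0.59 (SD, n = 3) in controls, a difference of 1.59 ± 0.49 (SE) or 3.01-fold, and 9.56 ± 0.85 (SD, n = 4) and 10.45 ± 0.53 (SD, n = 3) in estrogen gilts. Of the 4 enzymes SQLE varied most between gilts of 1 group, with a within-group SD of 0.73.

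CYP51, lanosterol demethylase, had log2 values of 10.55, 11.13, 10.62 and 10.91 in controls on day 13 and 11.59, 11.44 and 12.95 on day 15. In estrogen gilts they were 10.44, 11.67, 10.39 and 11.33 on day 13 and 11.34, 11.37 and 11.32 on day 15. The 3 estrogen day 15 arrays lay within 0.048 of each other, the narrowest group for any of the 4 enzymes, and all 3 were below the lowest control day 15 array. They also lay inside the range of estrogen day 13. Means were 10.80 ± 0.27 (SD, n = 4) and 11.99 ± 0.83 (SD, n = 3) in controls, a difference of 1.19 ± 0.36 (SE) or 2.29-fold, and 10.96 ± 0.64 (SD, n = 4) and 11.34 ± 0.024 (SD, n = 3) in estrogen gilts. The control difference was 0.63 without the 3 arrays that stand apart, and control day 15 still lay above estrogen day 15.

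MSMO1, methylsterol monooxygenase, had log2 values on its brightest probe set of 10.72, 11.62, 10.82 and 11.43 in controls on day 13 and 11.85, 12.22 and 13.19 on day 15. In estrogen gilts this probe set read 11.15, 12.64, 10.87 and 11.60 on day 13 and 11.93, 11.77 and 12.18 on day 15. As with HMGCS1 and CYP51, replicate 2 was the highest array of estrogen day 13. For MSMO1 it was above all 3 estrogen day 15 arrays. Means were 11.15 ± 0.45 (SD, n = 4) and 12.42 ± 0.69 (SD, n = 3) in controls, a difference of 1.27 ± 0.40 (SE) or 2.41-fold, and 11.57 ± 0.78 (SD, n = 4) and 11.96 ± 0.21 (SD, n = 3) in estrogen gilts.

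**Figure D1:**
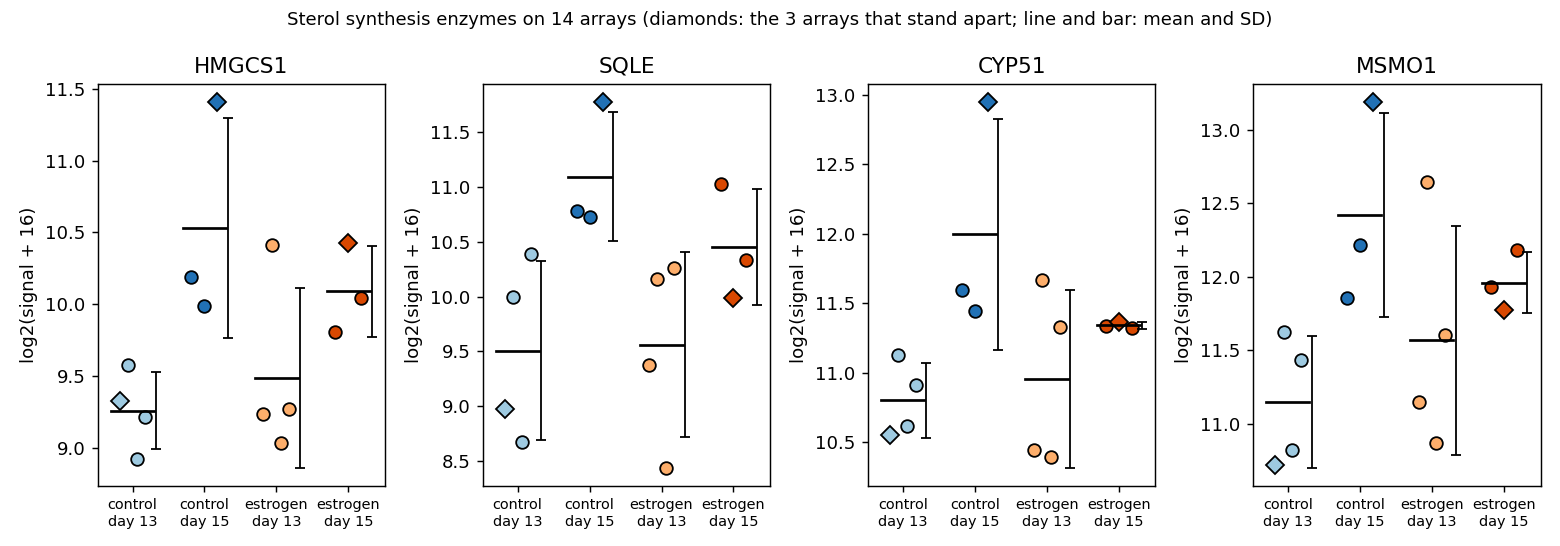
Log2(signal + 16) of HMGCS1, SQLE, CYP51 and MSMO1 (brightest probe set) on each of the 14 arrays, by treatment and day; each point is 1 gilt, diamonds are the 3 arrays that stand apart, and the line and bar give the group mean and SD. In all 4 panels control day 15 lies above control day 13 without overlap, the highest point is control day 15 replicate 3, and the estrogen days overlap. The enzymes were chosen on this control difference, and the share of all probe sets that separate these groups is not given.

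The second MSMO1 probe set gave a different picture in estrogen gilts. Its log2 values in controls were 6.53, 7.93, 6.85 and 7.69 on day 13 and 7.89, 8.22 and 9.07 on day 15, and in estrogen gilts 7.57, 8.19, 6.90 and 7.68 on day 13 and 6.96, 7.67 and 6.68 on day 15. In controls it differed between the days by 1.15 ± 0.41 (SE), in the same direction as the brightest probe set, though the days overlapped. On estrogen day 15, replicates 1 and 3 were among the lower arrays here and not on the brightest probe set. The gap between the probe sets was 3.58 to 4.45 on the other 12 arrays and 4.97 and 5.50 on these 2. The same 2 arrays had the highest 3' bias scores, 1.88 and 1.44, and the next highest was 0.49. The score is the mean standardised 3' minus 5' log2 difference of GAPDH, actin and EF1A, and a higher score means a larger excess of 3' signal. Gap and score had Pearson r = 0.63 but Spearman rho = 0.14 over the 14 arrays, and 0.72 and 0.28 over the 11 that do not stand apart. The part of 3' bias in this gap was not tested. The remaining MSMO1 probe set was too dim to test, with signals of 0.428 to 29.5 and a mean log2 value of 4.35 against the filter level of 6.35.

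**Figure D2:**
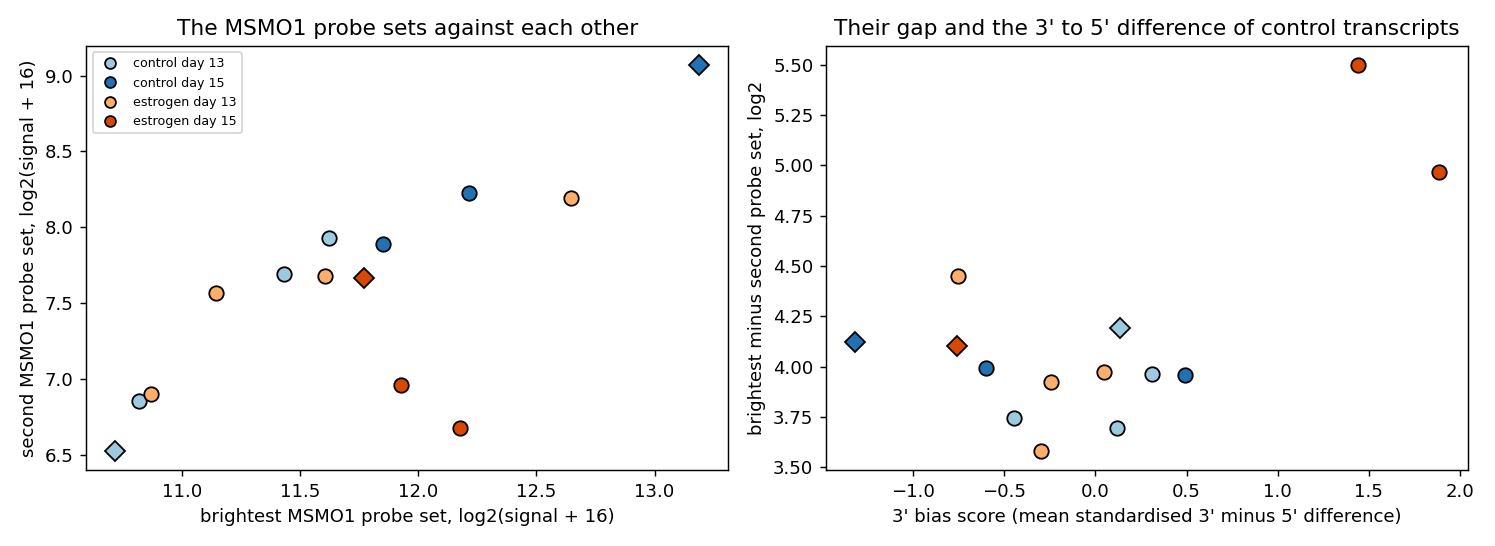
Left, the second MSMO1 probe set against the brightest one, both as log2(signal + 16); right, their log2 gap against the 3' bias score of the array (mean standardised 3' minus 5' difference of 3 control transcripts). Each point is 1 array, coloured by group, with diamonds for the 3 arrays that stand apart; 2 estrogen day 15 arrays lie off the trend at left and have gaps of 4.97 and 5.50 at right.

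For each of the 4 enzymes, on the brightest probe set, the group means ran in the same order. Control day 15 was highest, then estrogen day 15, estrogen day 13 and control day 13. The choice of the enzymes placed control day 15 above control day 13. Their levels were correlated over arrays, so the shared order is not 4 separate results. Neighbours in that order overlapped for every enzyme, with the exception of CYP51 between the day 15 groups. The second MSMO1 probe set did not follow it, since estrogen day 15 had its lowest mean (7.10 ± 0.51, SD, n = 3).

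The comparison of day 15 with day 13 in controls describes pseudopregnancy after corn oil in place of the estrogen doses. The 4 enzymes differed by a median of 1.27 on the log2 scale, and without the 3 arrays that stand apart by 0.85 for HMGCS1, 1.07 for SQLE, 0.63 for CYP51, 0.74 for MSMO1 and 0.57 for its second probe set. Control day 15 replicate 3 alone raised all 5 values: without it they were 0.83, 1.25, 0.72, 0.89 and 0.81. This array also had the lowest 3' bias score of the 14, -1.32, so the least excess of 3' signal, against -0.76 to 1.88 for the rest. With that score as a covariate the differences were 1.07, 1.52, 1.05, 1.13 and 0.89. Over all probe sets limma called 0 of 16754 (0%) in this contrast, with 1.86% higher and 2.05% lower at an unadjusted p under 0.05.

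The same comparison in estrogen gilts, whose arrays took no part in choosing the enzymes, gave smaller differences, and none passed the test. HMGCS1 differed by 0.60 ± 0.36 (SE; 95% interval -0.18 to 1.38; limma adjusted p = 0.665) and SQLE by 0.89 ± 0.49 (-0.17 to 1.95; adjusted p = 0.630). CYP51 differed by 0.38 ± 0.36 (-0.40 to 1.16; adjusted p = 0.776) and MSMO1 by 0.39 ± 0.40 (-0.47 to 1.25; adjusted p = 0.795). The second MSMO1 probe set had the opposite sign, at -0.48 ± 0.41 (-1.36 to 0.39; adjusted p = 0.752). On each of the other 4 probe sets all 3 day 15 arrays lay above the day 13 median. The share of all probe sets that do so is not given, and these 4 were correlated over arrays. Of the 5 probe sets 0 passed and 0 had an unadjusted p under 0.05, where limma called 0% of all probe sets, with 4.77% higher and 3.84% lower at an unadjusted p under 0.05. Each interval includes 0. The intervals of HMGCS1 and SQLE reach past the values seen in controls, 1.27 and 1.59, and those of CYP51 and MSMO1 end just under theirs, 1.19 and 1.27.

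Individual gilts moved the estrogen values. Without replicate 2 of estrogen day 13 the differences were 0.91 for HMGCS1, 0.62 for CYP51 and 0.75 for MSMO1, and without replicate 3 of that group they were 0.52 for SQLE, 0.19 for CYP51 and 0.16 for MSMO1. When the 3 arrays that stand apart were left out they were 0.43 for HMGCS1, 1.12 for SQLE, 0.37 for CYP51, 0.49 for MSMO1 and -0.77 for its second probe set, with limma adjusted p of 0.304 to 0.593. In that fit limma called 0 of these 5, with 0 at an unadjusted p under 0.05, against 1.32% of all probe sets called. With the 3' bias score as a covariate, HMGCS1 reached 1.07 (limma unadjusted p = 0.0115, adjusted p = 0.220). In that fit 2741 of all 16754 probe sets had an unadjusted p under 0.05. The second MSMO1 probe set changed sign there, to 0.11. Adjusted p over all alternatives was 0.220 to 0.874 for HMGCS1, 0.304 to 0.877 for SQLE, 0.389 to 0.947 for CYP51, 0.439 to 0.965 for MSMO1 and 0.306 to 0.911 for its second probe set.

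The comparisons of estrogen with control ask how the treatment altered the endometrium on each day, and they share control arrays with the choice of the enzymes, so they are descriptions. On day 13 the differences were 0.23 ± 0.34 (SE) for HMGCS1, 0.05 ± 0.46 for SQLE, 0.16 ± 0.34 for CYP51, 0.42 ± 0.37 for MSMO1 and 0.34 ± 0.38 for its second probe set, and the groups overlapped. Read as possible pairs by replicate number, MSMO1 was higher with estrogen in 4 of 4 pairs, by 0.43, 1.02, 0.05 and 0.17, HMGCS1 in 3 of 4, SQLE and CYP51 in 2 of 4 each and the second MSMO1 probe set in 3 of 4. With the replicate block the differences were the same, and the SE for MSMO1 was 0.37. Without replicate 2 of estrogen day 13, HMGCS1 and CYP51 were at -0.08 each and MSMO1 at 0.06. On day 15 estrogen gilts were lower, by -0.44 ± 0.39 for HMGCS1, -0.65 ± 0.53 for SQLE, -0.65 ± 0.39 for CYP51, -0.46 ± 0.43 for MSMO1 and -1.29 ± 0.44 for its second probe set. The day 15 groups were separate for CYP51 and for the second MSMO1 probe set and overlapped for the rest, and the share over all probe sets is not given. The day 15 differences without the 3 arrays that stand apart were -0.17 for HMGCS1, -0.07 for SQLE, -0.19 for CYP51, 0.02 for MSMO1 and -1.24 for its second probe set. The second MSMO1 probe set thus kept its difference and the brightest did not; with the 3' bias score as a covariate the second was at -0.62.

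The day difference was smaller in estrogen than in control gilts for all 5 probe sets, by -0.67 ± 0.51 (SE) for HMGCS1, -0.70 ± 0.70 for SQLE, -0.81 ± 0.51 for CYP51, -0.88 ± 0.56 for MSMO1 and -1.63 ± 0.58 for its second probe set. These values are a description and carry no test. The enzymes were chosen on the control difference, which favours large values there. A smaller difference in estrogen gilts is therefore no sign by itself that the treatment altered the day difference. Over all probe sets limma called 0% here, with 1.88% higher and 1.67% lower at an unadjusted p under 0.05. With the 3 arrays left out the values were -0.42, 0.05, -0.26, -0.25 and -1.33 in the same order, so the sign for SQLE turned.

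**Figure D3:**
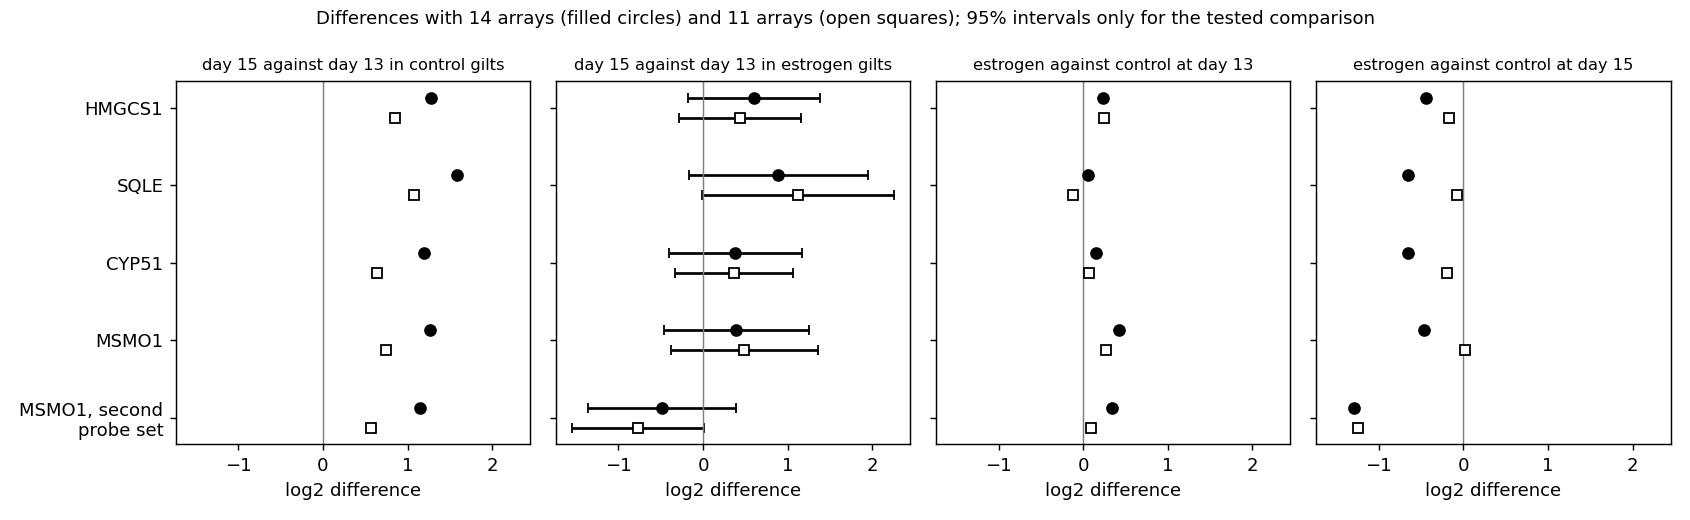
Log2 differences from the limma fit for the 5 tested probe sets in 4 comparisons, with all 14 arrays (filled circles) and with the 11 arrays left without those that stand apart (open squares); bars are 95% intervals and are drawn for the tested comparison, the days in estrogen gilts. The control day differences are 1.15 to 1.59 with 14 arrays and 0.57 to 1.07 with 11, and the intervals for the estrogen day differences include 0 for every probe set.

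Gilts that were high for 1 enzyme tended to be high for the others. Over the 14 arrays the 6 pairs of enzymes had Pearson r of 0.76 to 0.93 (median 0.88) and Spearman rho of 0.58 to 0.89. Since the groups differ, the same was computed on deviations from the group means, where r was 0.49 to 0.90 (median 0.80), and over the 11 arrays that do not stand apart, where deviations gave 0.54 to 0.92. Leaving out the 2 arrays farthest from the median of the first enzyme of each pair left r of levels at 0.56 to 0.90. These values describe enzymes read on the same arrays, with shared RNA, labelling and scaling, and carry no test.

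CYP51 and MSMO1, which both act in the stretch after lanosterol, were the closest pair (r = 0.93, and 0.90 for deviations). Among all 16753 other tested probe sets, CYP51 was the one most correlated with MSMO1 on levels, and MSMO1 was at rank 3 for CYP51. Levels hold the group difference that chose the enzymes. On deviations CYP51 was at rank 2 for MSMO1 and MSMO1 at rank 3 for CYP51. HMGCS1 and SQLE were the least alike (r = 0.76, and 0.49 for deviations). SQLE was at rank 137 for HMGCS1 on levels and at rank 1871 on deviations, where HMGCS1 was at rank 795 for SQLE. Within estrogen day 13, replicate 2 lay above its group mean by 0.93 for HMGCS1, 0.60 for SQLE, 0.71 for CYP51 and 1.08 for MSMO1. Replicate 3 of that group was below it for each enzyme, by -0.46, -1.12, -0.56 and -0.70. These 2 gilts had the same treatment and day, and differed 2.61-fold for HMGCS1 and 3.42-fold for MSMO1. Not every gilt ran this way: replicate 4 of that group was at -0.22 for HMGCS1 and 0.70 for SQLE. On estrogen day 15, HMGCS1 and SQLE had opposite signs on replicate 1 (-0.29 and 0.58) and replicate 2 (0.34 and -0.46).

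Averaged over the 4 enzymes, each standardised over the 14 arrays, control day 15 replicate 3 was highest at 2.23, followed by estrogen day 13 replicate 2 at 0.76. Estrogen day 13 replicate 3 was lowest at -1.32 and control day 13 replicate 3 next at -1.23. The 3 estrogen day 15 arrays were close together, between 0.29 and 0.39. Within-group SD was 0.53 for HMGCS1, 0.73 for SQLE, 0.53 for CYP51 and 0.59 for MSMO1, against a median of 0.35 over all tested probe sets.

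**Figure D4:**
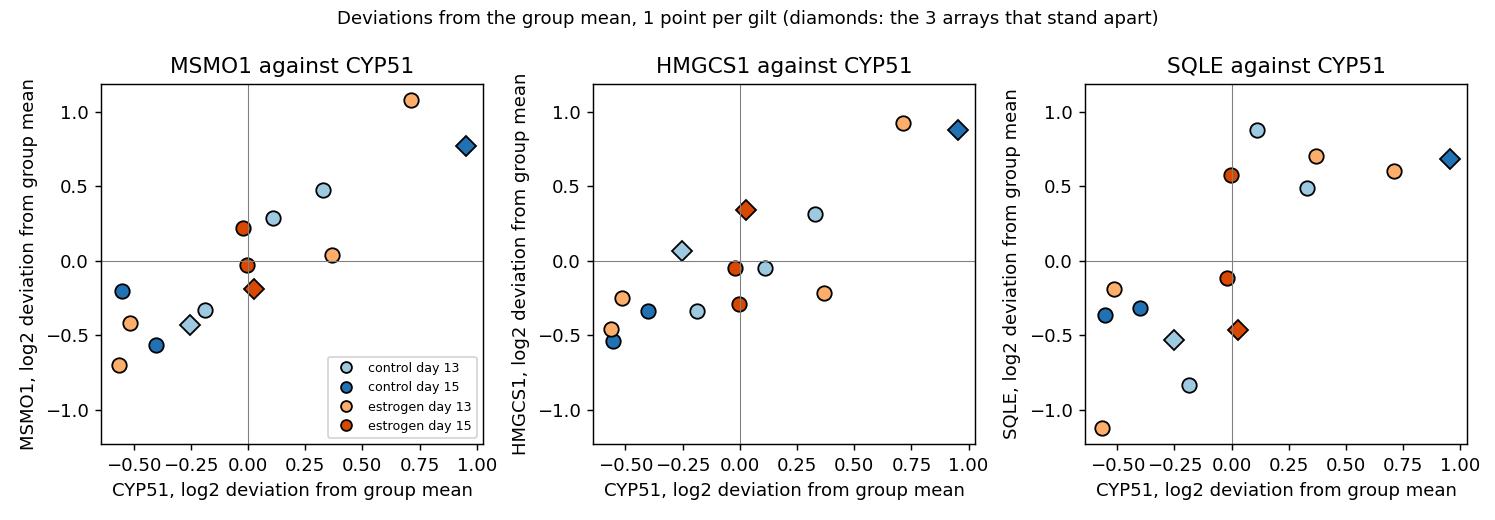
Log2 deviation from the group mean of MSMO1, HMGCS1 and SQLE (vertical axes) against that of CYP51 (horizontal axis), 1 point per gilt, coloured by group, with diamonds for the 3 arrays that stand apart. Points run from lower left to upper right in each panel, most tightly for MSMO1, where r is 0.90 over the 14 arrays.

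The rest of the pathway was read through 31 other genes in 6 lists, covering sterol synthesis, its SREBP control, cholesterol uptake, efflux and storage, fatty acid synthesis and steroid hormone synthesis. Each gene was counted by its brightest probe set alone. Genes of cholesterol metabolism had already been seen to shift between the days in controls, so their counts there are no independent support. Of the sterol synthesis list, 7 genes were measured besides the 4 enzymes, and the rest were not used here. In controls all 7 were higher on day 15, with a median of 0.79 against -0.02 over all tested probe sets, of which 47.6% were higher. All 5 SREBP control genes were higher too, with a median of 0.48. Across the 31 genes limma called 0 (0% of all probe sets), and 7 had an unadjusted p under 0.05, all higher, against 1.86% of all probe sets higher and 2.05% lower.

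Of these 7 genes, ACAT2, the cytosolic thiolase that supplies the substrate of HMGCS1, differed by 1.67 ± 0.57 (SE). FDPS, farnesyl diphosphate synthase, differed by 1.40 ± 0.54, and NSDHL, a sterol dehydrogenase that follows MSMO1, by 0.94 ± 0.34. SC5D, a desaturase late in the pathway, differed by 0.79 ± 0.35. INSIG1, which holds SREBP in the endoplasmic reticulum and is itself switched on by it, differed by 1.02 ± 0.45, and SREBF2, the gene of SREBP2, by 0.59 ± 0.27. SCD, the desaturase of fatty acid synthesis, differed by 1.59 ± 0.48. Without the 3 arrays that stand apart, 2 of the 31 had an unadjusted p under 0.05, SCD at 1.49 and ACAT2 at 1.13, against 3.2% of all probe sets higher and 1.92% lower. The others were at 0.89 for FDPS, 0.44 for NSDHL, 0.30 for SC5D, 0.81 for INSIG1 and 0.48 for SREBF2.

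In estrogen gilts the 31 genes, by their brightest probe sets, gave 0 calls and 0 with an unadjusted p under 0.05. All probe sets gave 4.77% higher and 3.84% lower. A dimmer probe set of NPC2, from the cholesterol uptake list, was at 0.68 (limma unadjusted p = 0.0389). Of the 7 sterol synthesis genes 4 were higher on day 15, with a median of 0.12 against 0.02 over all probe sets, of which 52.3% were higher. ACAT2 was at 1.01 ± 0.57 (SE; unadjusted p = 0.0956) and INSIG1 at 0.96 ± 0.45 (unadjusted p = 0.0527), each with an interval that includes 0, whereas FDPS was at -0.27 ± 0.54. INSIG1 read 9.02, 10.83, 8.18 and 9.69 on estrogen day 13 and 10.29, 10.40 and 10.49 on day 15, so day 13 replicate 2 was again the highest and replicate 3 the lowest of the group. Without the 3 arrays that stand apart 7 of the 7 were higher (median 0.25), as were 52.6% of all probe sets (median 0.02). In that fit 4 of the 31 had an unadjusted p under 0.05, all higher, against 8.77% of all probe sets higher and 7.96% lower. These were MYLIP, which marks the LDL receptor for breakdown, at 0.98, the lipoprotein receptor SCARB1 at 0.66, SREBF2 at 0.72 and the sterol-sensing receptor NR1H3 at 0.53.

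Between treatments, all 7 sterol synthesis genes were higher with estrogen on day 13 (median 0.30) and all 7 lower on day 15 (median -0.43). Of all probe sets 46.8% were higher on day 13 (median -0.02) and 54.3% on day 15 (median 0.03). Both comparisons use the control arrays in which genes of cholesterol metabolism had been seen to shift, so these counts are no independent support. Both comparisons gave 0 limma calls among the 31 and 0% over all probe sets. FDPS on day 13 was at 1.15 ± 0.50 (SE; unadjusted p = 0.0391), where 1.75% of all probe sets were higher and 1.14% lower, and ELOVL6, a fatty acid elongase, on day 15 at -1.31 ± 0.55 (unadjusted p = 0.0318), where 1.84% were higher and 1.99% lower. FDPS was lowest on 2 of the arrays that stand apart, at 10.21 on control day 13 replicate 1 and 10.83 on estrogen day 15 replicate 2. Without the 3 arrays, 5 of the 7 were higher on day 13 and 4 of the 7 higher on day 15, against 51.9% and 50.1% of all probe sets. FDPS was then at 0.79 and 0.28. ELOVL6 on day 15 was then at -1.07 (unadjusted p = 0.102), and 4 of the 31 genes had an unadjusted p under 0.05, all higher: MYLIP at 0.96, FADS1, a fatty acid desaturase, at 0.73, NR1H3 at 0.61 and SCARB1 at 0.58. In that fit limma called 0%, with 3.9% of all probe sets higher and 4.42% lower at an unadjusted p under 0.05.

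**Figure D5:**
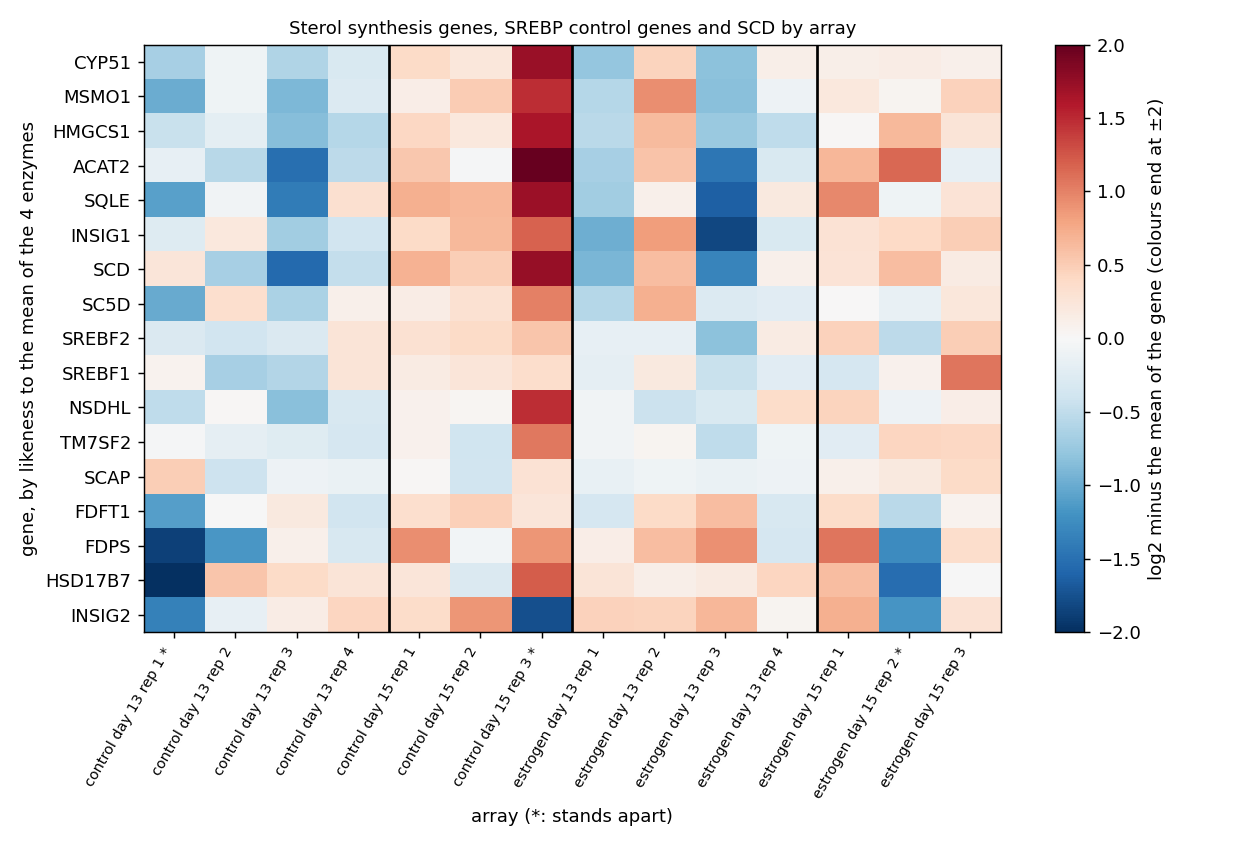
Each tested gene of the sterol synthesis and SREBP control lists and SCD (rows, ordered by likeness to the 4 enzymes) on the 14 arrays (columns, asterisk for those that stand apart), coloured by log2 value minus the mean of the gene over the arrays; colours end at 2 either way. The upper rows share the high control day 15 replicate 3 and the low estrogen day 13 replicate 3, and FDPS, HSD17B7 and INSIG2 in the lower rows are low on control day 13 replicate 1 and estrogen day 15 replicate 2.

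Likeness to the enzymes was measured as the smaller of the Pearson r with their standardised mean over 14 and over 11 arrays. It was taken on levels, which hold the control day difference that chose the enzymes. High ranks of genes that shifted between those days are therefore no independent support. Among genes of the lists, ACAT2 (0.90 on both of its probe sets), INSIG1 (0.89), SCD (0.89) and SC5D (0.83) came closest, at ranks 6, 7, 9, 10 and 14 of all 16754 probe sets. The enzymes themselves, which make up the mean, were at ranks 1, 2, 5 and 8, and the second MSMO1 probe set was at rank 561 (0.48). Not every enzyme of the pathway was alike: FDFT1, squalene synthase, was at rank 2940 (0.19), FDPS at 3533 (0.14) and HSD17B7, a ketoreductase of methyl removal, at 10039. SREBF2 reached 0.67 on its brightest probe set, at rank 93. On deviations from group means over the 14 arrays, r was 0.81 for both ACAT2 probe sets, 0.87 for INSIG1 and 0.76 for SCD. It was 0.84 for SC5D and 0.42 for that SREBF2 probe set.

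The same limit holds for the 5750 candidate genes outside the lists. Among these candidates, the 10 most alike had values of 0.74 to 0.81, and r of 0.62 to 0.83 on deviations. They were ATP5A1 and ATP5G3, subunits of the mitochondrial ATP synthase, at 0.81 and 0.77. Others were IMP4, a ribosomal RNA processing factor, at 0.81, ARF1, a GTPase of Golgi transport, at 0.79, and PRR13 at 0.78. GNG12, a G protein subunit, and LOC100156879 were at 0.77, IGFBP5, an insulin-like growth factor binding protein, at 0.76, RNF25, a ubiquitin ligase, at 0.75 and POLR3D, a subunit of an RNA polymerase, at 0.74. The 3 genes most opposite were ABLIM1, an actin-binding protein (-0.83), APOBEC3B, a cytidine deaminase (-0.79), and CLN3, a lysosomal membrane protein (-0.76), where the weaker of both r is given.

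Markers of 7 cell types were read beside the enzymes. From day 13 to day 15, macrophage markers summed to signals of 1263 to 4964 and 2507 to 4383 in controls and 1354 to 1663 and 2936 to 5398 in estrogen gilts. Lymphocyte markers summed to 419 to 1026 and 448 to 1128 in controls and 354 to 620 and 848 to 1655 in estrogen gilts, and CD2, CD4 and CD79B were too dim to test. Macrophage markers were higher on day 15 for 7 of 7 genes in controls and 6 of 7 in estrogen gilts, with medians of 0.53 and 1.38, and lymphocyte markers for 4 of 5 and 5 of 5, with medians of 0.31 and 0.76. Over the 11 arrays that do not stand apart, both sums were separate between the days under both treatments, with macrophage sums in controls of 1263 to 1806 and 2840 to 4383 and lymphocyte sums of 419 to 666 and 1052 to 1128.

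The medians of the other 5 lists were nearer to 0. In controls, markers were higher on day 15 for 6 of 6 endothelial genes (median 0.17), 5 of 7 stromal genes (0.22), 4 of 5 smooth muscle genes (0.28), 2 of 3 red blood cell genes (0.18) and 3 of 11 epithelial genes (-0.26). In estrogen gilts these counts were 3 of 6, 4 of 7, 3 of 5, 1 of 3 and 6 of 11. Epithelial sums were 47359 to 53907 and 40679 to 55754 in controls on days 13 and 15, and on the 11 arrays 47359 to 50208 and 40679 to 42372, lower on day 15. In estrogen gilts they were 43996 to 46908 and 46120 to 51474, and on the 11 arrays the day 15 sums were all above day 13. Stromal sums in controls were 28953 to 36566 and 34520 to 40076, and endothelial sums 3783 to 6673 and 5546 to 6388.

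Set against the mean of the 4 enzymes array by array, the mean log2 value of the red blood cell markers had r = 0.57 over 14 arrays and 0.71 over 11. Macrophage markers had 0.37 and 0.55, lymphocyte markers 0.12 and 0.63, stromal markers 0.48 and 0.32, and epithelial markers -0.11 and -0.43. Smooth muscle markers had 0.29 and -0.13 and endothelial markers 0.15 and -0.02. These values describe readings of the same arrays, which share RNA and scaling, and carry no test. The part of cell composition in the enzyme levels was not tested.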

How the data were processed

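Total RNA from the endometrium of 14 gilts was biotin-labelled and read on Affymetrix porcine arrays, 1 for each gilt, per the labels' protocols. The deposited values are linear intensities, 1 per probe set and array. The software is not given in the sources used here, but the 2% trimmed mean is 500.1 on each array, which shows that the authors had scaled the arrays to each other before deposition. Median signals were 177 to 217.

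Of 24123 probe sets, 188 controls were left out, values were taken as log2(signal + 16), and the dimmest 30% by mean were dropped, leaving 16754. A fold on this scale understates the change of dim probe sets. Of all probe sets 10099 had 1 gene symbol, 198 several (not named) and 13826 none in the probe annotation, which can be old, and 9989 matched by gene identifier. One fit of 4 group means was made in limma 3.58.1 under R 4.3.3 (eBayes with trend, Benjamini-Hochberg over all probe sets, threshold 0.05). The method was tested on simulated data. Python 3.11.15 was used for counts, correlations and figures. An array was said to stand apart when its median correlation to the others was lower than the median of all arrays by more than 3 median absolute deviations.

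The members and gene lists were chosen with earlier results of these data known. Named were all member probe sets, the list genes, with values for those past an unadjusted p of 0.05, and the 10 most alike and 3 most opposite genes; other list genes, with INSIG1 and ACAT2 in estrogen gilts, were named after their values were seen. Alternatives were no filter or a filter at 50%, quantile normalization, median centring, pseudocounts of 1 and 64, array weights, only the groups compared, the replicate block, no trend, the mean over probe sets, the 3' bias score as a covariate, each array left out, and the 3 arrays left out. Replicate numbers were checked as pairs from the correlation of deviations from group means. For estrogen and control on day 13 all 4 same-numbered pairs were over 0.1 (0.13 to 0.28), from the values alone because no label gives a shared litter or batch, and these were treated as possible pairs. In the day comparison of estrogen gilts they were -0.07 to 0.20, and these numbers were not taken as pairs. Sequences of genes, proteins and probes were not used here.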

Additional observations from a re-analysis of the deposited data

Results flagged for a closer look

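The third MSMO1 probe set read 4.79 (log2) on control day 13 replicate 3, far from the other 3 arrays of its group, which lay between 4.04 and 4.09. Its signals were below the brightness filter throughout, and it entered no test. Chance flags about 1 in 20 groups, and no other group of 4 was flagged for any of the 6 probe sets of the enzymes.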

How the results depend on the processing

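Of 984 alternative values, 945 were kept, 37 moved and 2 reversed. Enzyme values were kept when they held direction and side of the threshold, or stayed within the spread between gilts (for correlations, between enzyme pairs). The 984 include counts of genes or probe sets, kept when within a set fold of the main count. Pathway counts at the adjusted threshold were 0 throughout. Most that moved were counts. Single probe set values moved 1 time each for CYP51, HMGCS1 and the second MSMO1 probe set. For single probe sets, changes of sign were counted as reversals only in the day comparison of estrogen gilts. Other changes of sign are therefore among those kept or moved. Against control, estrogen values reached -0.23 for SQLE on day 13 (kept), and 0.02 for MSMO1 (kept) and 0.09 for HMGCS1 (moved) on day 15. The first reversal was the median difference of the 4 enzymes between estrogen and control on day 13, which was 0.19 with all arrays and ranged from -0.079, without replicate 2 of estrogen day 13, to 0.40 with 1 array left out. The second was the second MSMO1 probe set in the day comparison of estrogen gilts, at 0.11 with the 3' bias score as a covariate; the cause was not tested. With 1 array left out, the median of the 4 enzymes ranged from 0.86 to 1.51 for the days in controls, 0.32 to 0.83 for the days in estrogen gilts and -0.77 to -0.13 for estrogen against control on day 15. With the replicate block these medians were 1.30, 0.51 and -0.55, and 0.19 for estrogen against control on day 13. The day difference of SQLE in estrogen gilts was then 1.15 (limma unadjusted p = 0.0329, adjusted p = 0.699). In that comparison 1142 of all 16754 probe sets had an unadjusted p under 0.05. The block changed no call for the enzymes or the 31 pathway genes. Over all probe sets, calls between the days in estrogen gilts went from 0 to 221 without the 3 arrays that stand apart, 168 with array weights, 99 with only the groups compared, 44 without control day 13 replicate 1 and 3 without the filter, and the 5 probe sets of the enzymes were at 0 throughout. The number of pathway genes with an unadjusted p under 0.05 in controls fell from 7 to 1 without control day 15 replicate 3. Over all 16754 probe sets the number fell from 656 to 395. In estrogen gilts the number of pathway genes went from 0 to between 1 and 6 under 9 alternatives. It was 6 under the 3' bias covariate and 4 without the 3 arrays. Over all 16754 probe sets the number was 1443 with all arrays, 2741 under that covariate and 2804 without the 3 arrays. The pathway counts are therefore not read as a result about the pathway.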
